A study of Caenorhabditis elegans with 2 samples.

Results

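The TOR, AMPK and sestrin pathway genes of Caenorhabditis elegans were followed through regions listed from a ChIP of tagged SPR-1, the worm relative of the corepressor CoREST. The set held 9 genes, sesn-1, let-363, daf-15, rict-1, raga-1, ragc-1, rsks-1, aak-1 and aak-2, out of 19973 nuclear protein-coding genes in the annotation. They were listed by pathway, and the region of each gene was selected on its signal as the strongest summit within 1000 bp of the annotated start. Signal, rank and thresholded status are therefore given as a description, with no test. The study measured 1 group of 2 biological replicates, whole L4 hermaphrodites of strain OP521 (unc-119(tm4063) III; wgIs521) collected 50 hours after synchronisation, with L1 larvae starved after bleaching. The integrated transgene wgIs521 expresses SPR-1 fused at its C-terminal end to GFP and FLAG, and GFP was the target of the antibody in the ChIP. Both samples share the transgene and the unc-119 allele. The labels used here do not name the promoter that drives the transgene. Every tissue of the animal was in the extract, so a region bound in few cells and a region bound weakly in many cells cannot be told apart. No list from untagged worms was used, so a region below is a line in a list from this ChIP and was not tested for dependence on SPR-1.

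TOR is a protein kinase that promotes growth when nutrients are plentiful. It works in a complex with Raptor that controls translation and autophagy, and in another with Rictor that signals to kinases such as SGK. Rag GTPases bring the Raptor complex to the lysosome when amino acids are present, and sestrins restrain that step. AMPK is a kinase that senses low energy and opposes TOR. In C. elegans both pathways are known for their part in lifespan, fat storage and development.

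The pooled list held 29977 nuclear candidate summits, the list of replicate 1 held 26049 and that of replicate 2 held 21944. By its deposited name the pooled list holds peaks and background, so a candidate outside the thresholded list may be background. The thresholded list held 1663 nuclear summits, all of which were among the strongest lines of the pooled list. Its lowest signal was 79.71, and the highest pooled signal outside it was 79.68. Signal is the authors' own value for each region. The sources used here do not give its scale, so it was compared within a list only, and ranks (1 is the strongest nuclear line) were used across lists. Read depth is unknown. Coordinates are 1-based on ce11, which is the assembly WBcel235.

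The strongest regions at aak-2, rsks-1 and rict-1 and the region between ragc-1 and its neighbour are shown as 101 bases around the summit. No window of sesn-1 is printed. Each line runs 5′ to 3′ on the strand of the gene, with the summit and the 10 bases on either side of it, 21 bases in all, in capitals. The sequences were read from the RefSeq genome WBcel235. The aak-2 windows are chrX:16796978-16797078 and chrX:16799122-16799222 on the plus strand, and the rsks-1 windows are chrIII:11243608-11243708 and chrIII:11245957-11246057 on the plus strand. The rict-1 window is chrII:13117266-13117366 and the ragc-1 window is chrIV:11604943-11605043, both on the minus strand.
aak-2 at +941 bp: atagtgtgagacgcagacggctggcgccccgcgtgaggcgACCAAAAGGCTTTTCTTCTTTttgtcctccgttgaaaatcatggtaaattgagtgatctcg
aak-2 at +3085 bp: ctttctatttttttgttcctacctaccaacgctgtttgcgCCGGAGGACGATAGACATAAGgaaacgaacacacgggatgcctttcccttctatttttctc
rsks-1 at -1462 bp: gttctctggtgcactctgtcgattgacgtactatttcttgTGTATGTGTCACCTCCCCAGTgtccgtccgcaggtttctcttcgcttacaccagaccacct
rsks-1 at +887 bp: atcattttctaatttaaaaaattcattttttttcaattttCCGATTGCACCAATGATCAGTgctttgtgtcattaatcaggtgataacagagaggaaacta
rict-1 at -506 bp: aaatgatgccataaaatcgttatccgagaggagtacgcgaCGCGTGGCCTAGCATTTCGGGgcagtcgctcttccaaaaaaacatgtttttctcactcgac
ragc-1 at -60 bp: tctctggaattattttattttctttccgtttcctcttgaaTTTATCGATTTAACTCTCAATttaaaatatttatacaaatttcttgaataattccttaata

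Of the 9 genes, 8 had a pooled candidate within 1000 bp of the start, and 45.8% of all protein-coding genes did. The exception was daf-15. Replicate 1 gave a candidate at 7 of the 9 genes, where 43.5% of all genes had one, and replicate 2 at 8, where 38.8% of all genes had one. A thresholded summit lay within 1000 bp of 2 genes, aak-2 and sesn-1, and of 5.83% of all protein-coding genes. Among each replicate's own 1686 strongest lines, replicate 2 had a summit near the same 2 genes (5.96% of all genes) and replicate 1 near 0 of the 9 (5.65% of all genes). In replicate 1 the regions of aak-2 and sesn-1 stood at ranks 1873 and 2147, below that limit. The median of the strongest pooled signal was 40.3 over the 8 genes, between 26.4 and 108, and 32.8 over all 9153 genes with a candidate, with quartiles of 24.3 and 51.5.

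**Figure D1:**
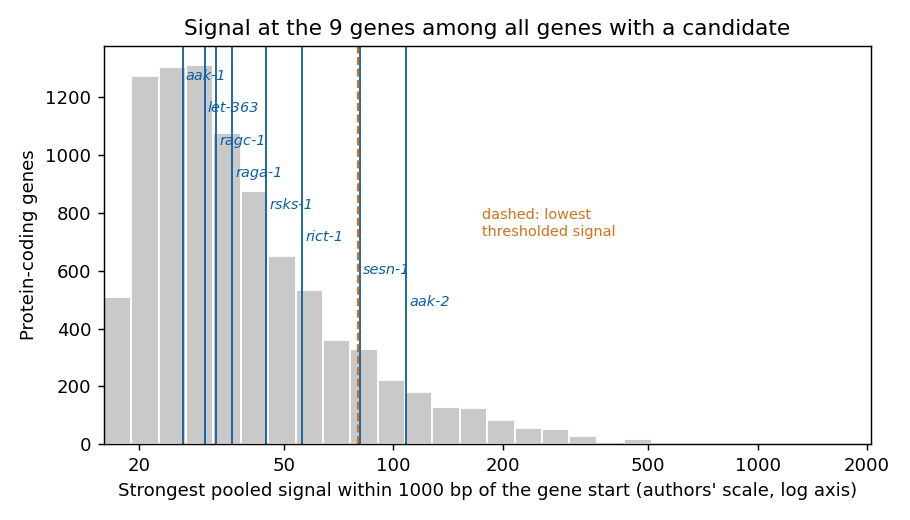
Number of protein-coding genes (vertical axis) by strongest pooled signal within 1000 bp of the gene start (horizontal axis, authors' scale, log axis), for the 9153 genes with a candidate. Blue lines mark the 8 pathway genes with a candidate and the dashed line marks the lowest thresholded signal, 79.71; aak-2 and sesn-1 lie to its right.

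The gene sesn-1 (WBGene00022279, I 27589 to 33150, minus strand) encodes a sestrin, which restrains the Rag GTPase step described above. Its strongest pooled summit had a signal of 80.9, the lowest of the 2 thresholded ones, at rank 1621. It lay 703 bp upstream of the start, in intergenic sequence, in a region from 33623 to 34082. Replicate 1 placed a summit in that region at rank 2147 (signal 41.0 on its own scale) and replicate 2 at rank 1279 (43.3). The summits of the replicates lay 684 and 845 bp upstream, 161 bp apart. A weaker pooled summit stood 905 bp upstream (52.3). The summit of replicate 1 was 19 bp from the thresholded summit and 221 bp from the weaker one, while that of replicate 2 was 142 bp from the thresholded summit and 60 bp from the weaker one, so the rank in replicate 2 may belong to the weaker summit. Another summit stood 938 bp inside the gene (41.5). The shorter of the 2 annotated transcripts starts 602 bp inside the gene, and RefSeq gives that start for the gene. From there the thresholded summit is 1305 bp away, outside the window, and the strongest candidate within it is the one of 41.5. Downstream of sesn-1, 380 bp past its end, another thresholded summit (signal 101, rank 1051) lay 428 bp upstream of rcor-1, a CoREST-family gene on the same strand. Replicate 1 ranked it 844 and replicate 2 ranked it 1559. Thresholded regions therefore lay on both sides of sesn-1, and none of the 4 candidates inside the gene was thresholded.

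The Rag GTPase genes raga-1 and ragc-1, which carry the amino acid signal to TOR at the lysosome, had candidates close to their starts, with signals near the median of 32.8 over all genes with a candidate. raga-1 (WBGene00006414, II 11301359 to 11302776, plus strand) had a pooled summit 24 bp upstream of its start with a signal of 36.0, at rank 8384. Replicate 1 ranked the region 11564 (signal 19.8) and replicate 2 ranked it 11157 (16.5). ragc-1 (WBGene00012497, IV 11603613 to 11604933, minus strand) had a pooled summit 60 bp upstream with a signal of 32.6, at rank 10336. Replicate 1 ranked that region 16915 (signal 16.5) and replicate 2 ranked it 17310 (13.3), both in the weaker part of their lists. The strongest summit of replicate 1 within the window of ragc-1 was another one, with a signal of 30.9 at the very edge, 1000 bp inside the gene. Neither Rag gene had a thresholded summit within 1000 bp. The region at ragc-1 lies in a divergent promoter, 261 bp upstream of Y24F12A.1, whose start is 321 bp from that of ragc-1. The thresholded summits nearest to ragc-1, at +2708 bp (105) and +2907 bp (119), lay 416 and 615 bp upstream of rps-11, a gene for a small ribosomal subunit protein. raga-1 had 14 candidates within 10 kb of its start and none of them was thresholded.

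let-363, daf-15 and rict-1 encode the TOR kinase, Raptor and Rictor. let-363 (WBGene00002583, I 5245743 to 5263424, plus strand) had a pooled summit 5 bp upstream of its start, with a signal of 30.3 at rank 12136. Replicate 1 ranked the region 18375 (signal 15.8) and replicate 2 ranked it 11715 (16.2). Replicate 2 had a stronger summit 232 bp inside the gene (20.6, rank 6811), where the pooled list had a coding-exon summit of 26.5. The strongest candidate in the body of let-363 lay in an intron at +16027 bp (69.3, rank 2152), with rank 1867 in replicate 1 and 5647 in replicate 2. The candidate at -1466 bp (46.1) lay 6 bp from the start of mrpl-47, a mitochondrial ribosomal protein gene. Neither replicate list had a summit in that region. None of the candidates within 10 kb of the let-363 start was thresholded.

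daf-15 (WBGene00000911, IV 9386208 to 9394979, plus strand) had no candidate within 1000 bp in any list, from any of its annotated transcript starts. The nearest pooled summit was 2495 bp upstream (21.3, rank 22984). The 2 summits inside the gene, at +4287 bp (18.2) and +7516 bp (22.3), were also weak, and both lay in coding exons. The gene had 4 candidates within 10 kb, the fewest of the 9, and its nearest thresholded summit was 56216 bp away. A missing line says only that no region passed into these lists, which end at a pooled signal of 17.6.

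rict-1 (WBGene00009245, II 13098239 to 13116810, minus strand) had the highest signal within the window among the genes below the threshold. Its pooled summit, 506 bp upstream of the start, had a signal of 56.2 and rank 3240. The replicates placed it far apart: replicate 1 ranked it 2463 (signal 38.4) and replicate 2 ranked it 8147 (19.0). The summit belongs to a divergent promoter and lies nearer to the neighbour: it is 167 bp upstream of gfm-1 (WBGene00009246), which encodes a mitochondrial translation elongation factor. The starts of rict-1 and gfm-1 are 673 bp apart, so the region cannot be given to either gene from these lists. With each summit given to the nearest gene only, rict-1 has no candidate. A shorter rict-1 transcript starts 6574 bp inside the gene, and a candidate of signal 47.5 (rank 4641) lay 86 bp from that start on the upstream side, in a coding exon of the longer transcripts. Replicate 1 ranked it 8692 and replicate 2 ranked it 3785.

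rsks-1 (WBGene00012929, III 11245120 to 11252281, plus strand) encodes the S6 kinase, which TOR activates to raise translation. Within 1000 bp its strongest pooled summit was intronic, at +887 bp, with a signal of 44.7 and rank 5266. Replicate 2 ranked that region 3745 (signal 26.6), while replicate 1 had no candidate in it and had its strongest one at +134 bp (16.1, rank 17802), in the 5′ untranslated region. The strongest summit near rsks-1 fell outside the window. It lay 1462 bp upstream, in intergenic sequence for which rsks-1 has the nearest protein-coding start, and was thresholded with a signal of 123 at rank 710. Replicate 1 ranked it 721 (signal 69.5) and replicate 2 ranked it 980 (49.3), so it stood above the summit counted for sesn-1 in both lists and above that counted for aak-2 in replicate 1. In nematodes the annotated start of a gene can be a trans-splice site, downstream of where transcription begins. The distance limit of 1000 bp decides whether this region is counted.

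aak-1 and aak-2 encode the alternative catalytic subunits of AMPK and stood at opposite ends of the 8 genes. aak-1 (WBGene00019801, III 8756990 to 8761090, minus strand) had the weakest candidate, with a signal of 26.4 at rank 16015. Its summit lay at +995 bp, just inside the window, in an exon of the 5′ untranslated region. Replicate 2 had it at rank 10948 (signal 16.7) and replicate 1 had no candidate within the window. The nearest thresholded summit was 7021 bp upstream (105), 200 bp from the start of mtss-1, which encodes a mitochondrial single-stranded DNA binding protein.

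aak-2 (WBGene00020142, X 16796087 to 16803398, plus strand) had the strongest summit within 1000 bp of a start among the 9 genes, with a signal of 108 at rank 924. It lay in an intron at +941 bp, in a region from 16796798 to 16797257. Replicate 1 had the region at rank 1873 (signal 43.9, summit at +951 bp) and replicate 2 at rank 549 (64.4, summit at +911 bp). A further thresholded summit (82.3, rank 1559) lay in an intron at +3085 bp, which is 535 bp upstream of the start of a shorter annotated transcript at +3620 bp. Replicate 1 ranked it 2949 and replicate 2 ranked it 1145. A thresholded summit at +7903 bp (91.7, rank 1253) lay 592 bp past the end of aak-2, in an intron of mec-4, a touch receptor channel gene. Replicate 1 ranked that summit 1024 and replicate 2 ranked it 1806. aak-2 was the 1 gene of the 9 with 3 thresholded summits within 10 kb of its start, and 2.27% of all genes had 3 or more. An annotated non-coding RNA gene, T01C8.9, lies 87 bp from the +941 summit, and these lists cannot assign the region to it or to aak-2. No tRNA gene lay within 32678 bp of the strongest summit of any of the 8 genes.

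**Figure D2:**
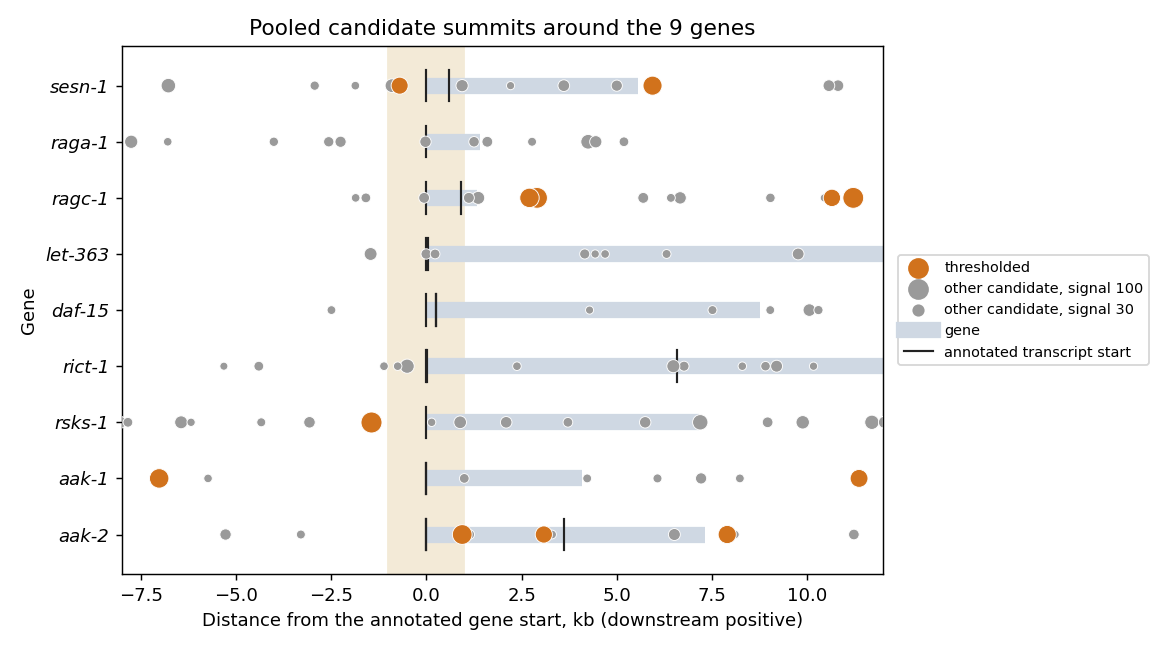
Pooled candidate summits by distance from the annotated start in kb (horizontal axis, downstream positive) for the 9 genes (vertical axis). The axis stops before the ends of let-363 and rict-1, so their bars are cut. Summits beyond the axis, such as that of let-363 at +16027 bp, are not drawn. Circle area is proportional to signal, orange circles are thresholded, bars are genes, ticks are annotated transcript starts and the shaded band is the window of 1000 bp; the thresholded summit of rsks-1 at -1462 bp lies outside the band, and daf-15 has no summit in it.

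The replicates were compared at the place of the pooled summit, as a rank in percent of each list's nuclear lines, where a low value means a strong region. A replicate summit lay inside the pooled region for 6 of the 8 genes in replicate 1, where 75.3% of all 9153 genes with a candidate had one, and for 8 of 8 in replicate 2, where 64.4% had one. aak-2 stood at 4.85 ± 3.32% (mean ± SD, n = 2) and sesn-1 at 7.04 ± 1.71% (n = 2). The ranges of these 2 genes overlapped, so their order is not settled by the replicates. rict-1 followed at 23.3 ± 19.6% (n = 2), the widest spread of the set, and its range overlapped neither that of sesn-1 nor that of raga-1. raga-1 stood at 47.6 ± 4.56%, let-363 at 62.0 ± 12.1% and ragc-1 at 71.9 ± 9.86% (n = 2 each). The ranges of raga-1 and ragc-1 did not overlap, and those of ragc-1 and let-363 did. rsks-1 at 17.1% and aak-1 at 49.9% had a value in replicate 2 only. With 2 replicates, non-overlapping ranges are a description of these lists.

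**Figure D3:**
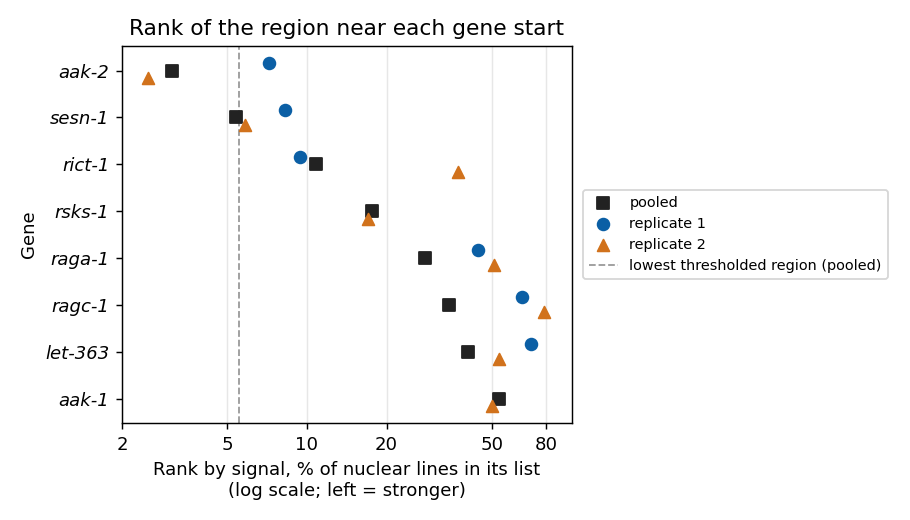
Rank of the region near each gene start, as percent of the nuclear lines in its list (horizontal axis, log scale, left is stronger), in the pooled list and in each replicate, for the 8 genes with a candidate (vertical axis). The dashed line is the rank of the lowest thresholded pooled line; aak-2 and sesn-1 lie to its left in the pooled list.

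The median number of pooled candidates within 10 kb of the start was 11 for the 9 genes and 6 for all genes, 11.2% of which had none. A thresholded summit lay within 10 kb of the start for 5 of the 9 genes (sesn-1, ragc-1, rsks-1, aak-1 and aak-2), and for 25.4% of all genes. Of those summits, the ones near ragc-1 and aak-1 lay closer to the starts of rps-11 and mtss-1, as given above.

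GC content was read for the strongest summit of each gene with a candidate and for further thresholded summits at aak-2, rsks-1 and sesn-1. Other candidates, such as the thresholded ones near ragc-1 and aak-1, were not included. Among these windows, the thresholded summits of aak-2 (+941 and +3085 bp), sesn-1 (-703 bp) and rsks-1 (-1462 bp), and rict-1, were more GC-rich than the weaker ones. The summits at +3085 and -1462 bp lie outside the window of 1000 bp. The windows of 101 bases held 50.5% GC at aak-2 (+941 bp), 44.6% at aak-2 (+3085 bp), 46.5% at sesn-1 (-703 bp), 47.5% at rict-1 and 51.5% at rsks-1 (-1462 bp). The weaker windows held 33.7% at aak-1, 31.7% at let-363, 28.7% at rsks-1 (+887 bp), 23.8% at raga-1 and 21.8% at ragc-1. The thresholded windows past the ends of sesn-1 and aak-2 held 33.7% and 31.7%, no more than aak-1 and let-363, so thresholded windows were not all GC-rich. Thresholded summits over the genome had a median of 48.5% (quartiles 42.6 and 53.5%, n = 1663), and the other pooled summits had a median of 36.6% (n = 28314). Over all 29977 pooled summits, Spearman's rho between GC content and signal was 0.237, a correlation over regions of the same libraries, which share depth and base composition.

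**Figure D4:**
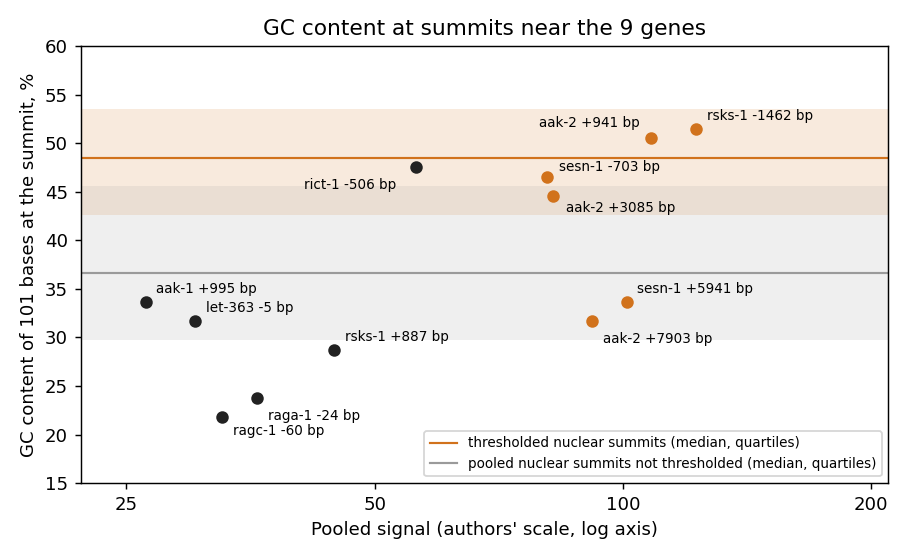
GC content in percent of 101 bases at the summit (vertical axis) against pooled signal (horizontal axis, authors' scale, log axis) for 12 summits near the genes, thresholded ones in orange. Lines and bands are the median and quartiles of thresholded (orange) and other pooled summits (grey); raga-1, ragc-1 and rsks-1 at +887 bp lie below the grey band.

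Short motifs were searched in the same windows on both strands. These were CACGTG, a core bound by basic helix-loop-helix factors, GTAAACA, the forkhead core, TGATAA, which factors of the GATA class bind, GTTCGA, which matches the internal promoter of tRNA genes, GAGAG and GCGC. GCGC stood in both intronic aak-2 windows printed above, starting 27 and 13 bases before the summit; 16.1% of all pooled and 41.3% of thresholded windows hold it. GAGAG was in the windows of rict-1, ragc-1 and sesn-1 and in the +887 bp window of rsks-1; 18.7% of pooled and 38.6% of thresholded windows hold it. TGATAA was also in the rsks-1 window at +887 bp, where it starts 31 bases after the summit and is followed by GAGAG, which starts 39 bases after it. It occurs in 9.25% of pooled and 5.59% of thresholded windows. GTAAACA was in the aak-1 window, and 1.16% of pooled windows hold it (1.44% of thresholded ones). CACGTG (2.48% of pooled, 4.57% of thresholded) and GTTCGA (4.20% and 10.2%) were in none of the 12 windows. No motif of the 6 was in the windows of let-363, raga-1 or rsks-1 at -1462 bp. A match is a match of letters and no more.

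The wider pathway held 42 further genes, matched from 43 listed by symbol. Of these, 29 (69.0%) had a pooled candidate within 1000 bp and 5 (11.9%) a thresholded one, and the median signal of the 29 was 35.1. The list was drawn up with earlier results of these data known. The share of 69.0% stands beside 45.8% of all genes, and 11.9% beside 5.83%.

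Among the TOR complex and RHEB genes, 3 of 3 had a candidate and rheb-1 was thresholded. rheb-1, the GTPase that activates TOR, had the strongest summit within 1000 bp of a start among all the pathway genes, with a signal of 165 at rank 375, 269 bp upstream of its start. Replicate 1 ranked it 459 and replicate 2 ranked it 373. Its promoter is shared with spk-1, an SR protein kinase gene, whose start lies 309 bp from the summit. The TOR partner gene mlst-8 had a weak candidate (25.6).

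Rag, GATOR and lysosomal scaffold genes had 6 of 9 with a candidate and 0 thresholded. npp-20, a GATOR component gene, had 71.3 and the folliculin gene flcn-1 had 50.1. Among TOR kinase outputs and autophagy genes, 7 of 12 had a candidate and 2 were thresholded. lgg-1, which encodes the autophagosome membrane protein related to Atg8, had 124 at 892 bp upstream (ranks 809 and 627 in replicates 1 and 2), and ife-2, an eIF4E cap-binding gene, had 93.0 at 264 bp upstream (ranks 1005 and 2049). akt-2, at 77.2, stood just below the threshold.

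Of the AMPK subunits and upstream kinases, 7 of 12 had a candidate and aakg-5, a gamma subunit gene, was thresholded at 88.4 with its summit 39 bp upstream (ranks 980 and 2913). The beta subunit gene aakb-2 had 43.5, and the kinase gene par-4, which encodes the LKB1 relative that activates AMPK, had no candidate in any list. All 6 AMPK output genes had a candidate. crh-1, the CREB gene, was thresholded at 109 with its summit 370 bp upstream (ranks 2697 and 454), and the SREBP gene sbp-1 had 45.2.

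**Figure D5:**
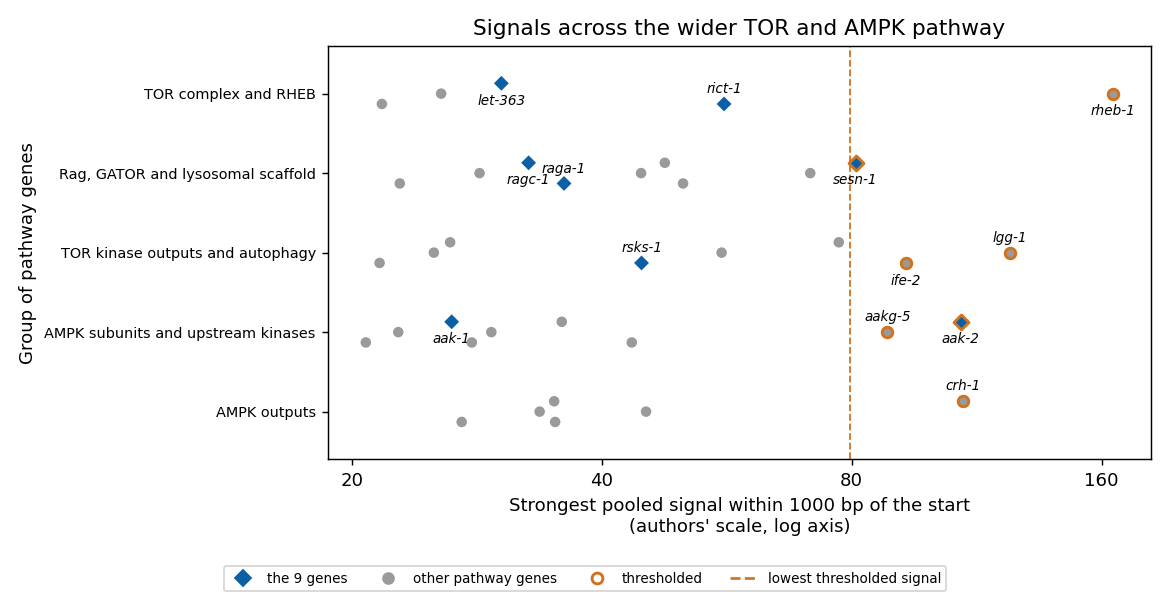
Strongest pooled signal within 1000 bp of the start (horizontal axis, authors' scale, log axis) for pathway genes with a candidate, by group (vertical axis). Diamonds are those of the 9 genes with a candidate, which leaves out daf-15, and circles are the other pathway genes. Orange outlines mark thresholded summits and the dashed line is the lowest thresholded signal. To its right lie 7 genes, led by rheb-1.

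For the 3 strongest genes of the set, the genes nearest in log10 rank over both replicates were looked up among 5733 genes with a candidate in each replicate. For aak-2 these were cpz-1 (distance 0.00934, pooled signal 96.3) and rbm-26 (0.0150, signal 110). For sesn-1 they were hgo-1 and spe-46 (0.00865 each), which share a single summit of signal 82.2. For rict-1 they were gfm-1, at distance 0 because it has the same summit, and txt-18 (0.0287, signal 43.5). The measure rests on 2 values per gene and describes rank alone.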

How the data were processed

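SPR-1 ChIP-seq lists of 2 biological replicates from 1 group were used. The builds were ce10 and ce11 per the labels, and only lists on ce11 were used here. Candidate lists fed an irreproducible discovery rate analysis, per the file names as deposited. The pooled one is named there as peaks and background. The sources used here do not give the aligner, the caller or the cut-off. The deposited signal values are the authors' own and were used for ranking within a list. The deposited −log10 q values and the deposited summit offset within each region (another number, in bp) were read, the offset to place summits. Lines on the mitochondrial genome were left out. No p-value was computed, since there was 1 group.

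Gene starts came from Ensembl release 115 (WBcel235). For each gene, the strongest summit within 1000 bp of the start was taken, in Python 3.11.15 with pandas 2.3.3, numpy 2.4.6 and scipy 1.17.1. The assignment was tested on simulated data. The members and gene lists were chosen with earlier results of these data known. The named genes were the 9 members, wider pathway genes with a thresholded summit or among the 2 strongest of their group, genes sharing a member's summit, and the 2 genes of most similar rank. Genes named beyond that rule, as neighbours of other summits or as examples, were chosen after their values were seen. Other windows, list lengths, starts and single replicates were tried as alternatives. Read depth is unknown.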

Additional observations from a re-analysis of the deposited data

How the results depend on the processing

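The count of the 9 genes with a thresholded summit, 2 as reported, was 0 within 500 bp, 0 among the 843 strongest lines and 1 (aak-2) with RefSeq starts, an alternative chosen after seeing the data, where 4.36%, 3.15% and 5.77% of all genes had one, in that order. It was 3 within 2000 bp (adding rsks-1; 8.52% of all genes) and 3 among the 3372 strongest lines (adding rict-1; 10.2%). With a single replicate it was between 0 and 2, the 0 being replicate 1 alone. It was 2 with any transcript start, the nearest gene only or the region interval (6.33%, 4.31% and 6.46% of all genes). The count with a candidate, 8 as reported, was 4 within 500 bp (33.5% of all genes) and 7 or 8 under the alternatives otherwise run (38.8 to 59.7%). Wider pathway genes with a thresholded summit, 5 as reported, numbered 9 within 2000 bp and 2 among the 843 strongest lines. They numbered 8 among the 3372 strongest, 8 with any transcript start, and 4 to 6 otherwise. These settings moved the count over all genes too, as given above. The single replicates gave different genes: aakg-5, ife-2, lgg-1 and rheb-1 in replicate 1, and crh-1, lgg-1, lmtr-3 and rheb-1 in replicate 2. Only lgg-1 and rheb-1 were in both. The 43 alternative signals of single genes were unchanged for 36 and changed for 7. Those 7 were rsks-1 (19.7 within 500 bp, 123 within 2000 bp), let-363 (46.1 within 2000 bp), ragc-1 (46.8 within 2000 bp and with any transcript start, 33.4 by region interval) and sesn-1 (41.5 with RefSeq starts). The 43 leave out the cases in which a gene lost its candidate. These were sesn-1, rict-1, aak-1 and aak-2 within 500 bp, and rict-1 with the nearest gene only. The cause was not tested beyond the change of window, list or start itself. No paired analysis was possible because there was 1 group. Limits are the 2 replicates, the unknown depth and signal scale, the lack of a list from untagged worms, and shared promoters, which let a summit count for 2 genes.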
